A study of Mus musculus with 78 samples.

Results

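Expression of 45 cell cycle and DNA replication genes was followed through 78 mouse RNA-seq libraries of cecum, colon, hippocampus, hypothalamus and peripheral blood mononuclear cells (PBMC). The genes were taken by symbol from a list chosen with earlier results of these data known, and all 45 of 45 were present in a table of 20673 genes. The series set mice under a disturbed light schedule against mice under a regular one, at 2 ages, and asks how age bears on circadian disruption. Values are deposited FPKM, read fragments scaled to transcript length and library size, and bulk tissue was sequenced, so fewer cycling cells and less RNA per cycling cell cannot be told apart in any result given here.

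All mice were C57BL/6 with free access to food, aged 8 weeks or 18 months. Controls (CON) had 12 h of light and 12 h of dark a day. The circadian rhythm disruption group (CRD) went through 4 weeks in which the light phase was inverted every 3 days, 3 weeks of 48 h light blocks alternating with 48 h dark blocks, and 1 week of constant light. For cecum there were 4 CON with 4 CRD libraries in the older mice and 5 with 5 in the younger, and for colon 5 with 4 and 4 with 5. Each brain region contributed 4 CON with 5 CRD libraries from older mice and 5 with 5 from younger ones, while PBMC came from older mice alone, 2 with 2. Neither the hour of collection nor the sex of the mice is in the labels, and whether each library is a separate mouse is not stated, so the tests rest on variation between libraries, which may be technical in part.

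Proliferating cells pass through an ordered programme. In G1 the helicase subunits Mcm2 to Mcm7 are loaded on replication origins by Cdc6 and Cdt1, a step restrained by Gmnn (geminin). E2F1 and cyclin E then drive entry into S phase, in which Pcna clamps the polymerases to DNA and the nucleotide enzymes Rrm1, Rrm2, Tyms and Tk1 feed synthesis. Cyclin A, the B cyclins and Cdk1 bring cells into mitosis, spindle kinesins and centromere proteins move the chromosomes, and Cdc20 and Ube2c serve the ubiquitin ligase that ends it. In the gut these steps run mainly in the crypts, whose dividing cells renew the epithelium, whereas nearly all neurons have left the cycle and circulating lymphocytes are mostly quiescent.

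The labelled tissues were checked against defining genes. Epcam, an epithelial adhesion molecule, averaged 631 to 719 FPKM in the cecum and colon CON groups and at most 0.485 FPKM in the brain CON groups. Snap25, a synaptic protein, averaged 602 to 892 FPKM in the brain CON groups, and Cd3e, a T cell receptor subunit, averaged 25.8 FPKM in PBMC CON. Hippocampus and hypothalamus were set apart by Prox1, a dentate gyrus factor, at 13.7 and 15.0 against 3.94 and 4.79 FPKM in their CON groups at 18 months and 8 weeks. Ddx3y, a gene of the Y chromosome, stood at 9.2 to 24.7 FPKM in all 39 libraries at 8 weeks but passed 1 FPKM in 1 of 39 at 18 months. That library was colon CON replicate 5 at 18 months, at 11.3 FPKM, against at most 0.06 FPKM in the others. Age and sex therefore cannot be told apart. For the 18-month colon comparisons the median over the whole cell cycle list is given with and without this library, as are some of the list's counts. Role medians, counts and medians of other gene lists, and marker values of these comparisons include the library and are not given without it.

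Promoter windows of 5 of the genes are shown so that matches to 3 short elements by which cell cycle genes are classed, and their absence, can be seen. The windows run from 250 bases before to 50 after the annotated start, 5′ to 3′ on the gene's strand (RefSeq table, GRCm38.p6), and capitals mark every match. Ccnb1, Cdk1, Mcm2 and Mki67 were chosen by rule and Mcm6 was added after its matches were seen. Their places are chr10:69352863-69353162 for Cdk1, chr13:100786437-100786736 for Ccnb1, chr7:135716330-135716629 for Mki67, chr6:88898731-88899030 for Mcm2 and chr1:128359656-128359955 for Mcm6, all on the minus strand.
Cdk1: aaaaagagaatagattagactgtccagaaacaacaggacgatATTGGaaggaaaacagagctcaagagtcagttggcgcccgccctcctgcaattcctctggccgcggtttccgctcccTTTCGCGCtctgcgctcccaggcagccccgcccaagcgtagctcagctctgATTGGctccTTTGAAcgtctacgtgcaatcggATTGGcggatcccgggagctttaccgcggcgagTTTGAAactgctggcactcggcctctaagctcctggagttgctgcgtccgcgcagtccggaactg
Ccnb1: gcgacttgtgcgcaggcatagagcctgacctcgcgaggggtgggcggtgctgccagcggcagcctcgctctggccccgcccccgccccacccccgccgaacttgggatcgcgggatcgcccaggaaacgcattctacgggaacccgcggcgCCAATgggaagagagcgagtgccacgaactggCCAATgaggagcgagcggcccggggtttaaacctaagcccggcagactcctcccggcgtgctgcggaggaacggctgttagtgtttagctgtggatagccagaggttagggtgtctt
Mki67: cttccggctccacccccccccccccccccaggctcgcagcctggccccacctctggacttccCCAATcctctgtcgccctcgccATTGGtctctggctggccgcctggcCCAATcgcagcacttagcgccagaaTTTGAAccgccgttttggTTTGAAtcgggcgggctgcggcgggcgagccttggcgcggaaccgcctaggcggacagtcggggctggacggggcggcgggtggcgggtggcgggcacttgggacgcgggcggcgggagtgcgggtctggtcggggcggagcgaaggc
Mcm2: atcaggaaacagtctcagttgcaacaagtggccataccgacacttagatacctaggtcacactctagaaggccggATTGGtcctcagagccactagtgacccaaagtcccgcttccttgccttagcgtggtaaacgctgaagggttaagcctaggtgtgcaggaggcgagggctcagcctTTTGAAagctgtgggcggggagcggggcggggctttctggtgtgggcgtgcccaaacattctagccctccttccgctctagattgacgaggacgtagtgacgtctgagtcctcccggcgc
Mcm6: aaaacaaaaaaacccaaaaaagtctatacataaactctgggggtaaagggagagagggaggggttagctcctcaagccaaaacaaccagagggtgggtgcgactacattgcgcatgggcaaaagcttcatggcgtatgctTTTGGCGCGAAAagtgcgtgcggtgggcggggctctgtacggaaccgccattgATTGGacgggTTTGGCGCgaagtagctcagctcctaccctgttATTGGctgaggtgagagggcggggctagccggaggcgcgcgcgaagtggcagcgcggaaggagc

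The elements were searched on both strands as exact letters: the E2F element as TTTGGCGC, TTTCCCGC, TTTGCCGC or TTTCGCGC, the cell cycle homology region (CHR) as TTTGAA or TTCGAA, and the CCAAT box as CCAAT, which reads ATTGG on the opposite strand. Cdk1, the mitotic kinase, held 1 E2F element that begins 131 bases before the start, a pair of CHR matches beginning 71 and 15 bases before it, and 3 CCAAT boxes. Mcm6, a helicase subunit, held 3 E2F matches, of which 2 overlap, and no CHR match. In Ccnb1 (cyclin B1) the window held 2 CCAAT boxes and neither other element.

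Windows were found for 37 of the 45 genes, 40 windows in all since 3 genes had more than 1. An E2F element lay in 8 of 40 (20.0%) against 2.26% of all 32851 windows in the table, and 6 of the 8 were among the 8 windows of origin licensing genes. A CHR match together with a CCAAT box lay in 19 of 40 (47.5%) against 7.52% of all windows. That pair was present in 7 of 9 windows of mitotic kinases and cyclins and 8 of 10 of chromosome and spindle genes, but in 2 of 8 of licensing genes and in 0 of 5 of DNA synthesis genes. These matches describe letters in the windows and are not evidence of binding.

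By the median of the 45 genes the tissues stood in the order cecum, colon, PBMC and brain, which single genes did not all follow. PBMC CON are 2 libraries from 18 months alone, while the other tissues hold both ages. The median over the genes of the CON mean was 11.8 FPKM in cecum, 8.56 in colon, 1.93 in PBMC, 0.882 in hypothalamus and 0.734 in hippocampus. In all, 38 genes had their highest CON mean in cecum, 4 in PBMC (Mcm4, Cdt1, Pcna and the centromeric histone Cenpa), 2 in colon (Plk1 and the spindle checkpoint kinase Ttk) and 1 in hypothalamus (Ccne1). The 2 brain regions overlapped for most genes. Of 28 genes averaging at least 0.5 FPKM over their CON libraries, 2 (E2f1 and Cenpa) had every hippocampus library above every hypothalamus library, where 10.7% of all genes did, and 3 (Mcm4, Cdt1 and Rrm1) lay wholly the other way, where 18.4% did.

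**Figure D1:**
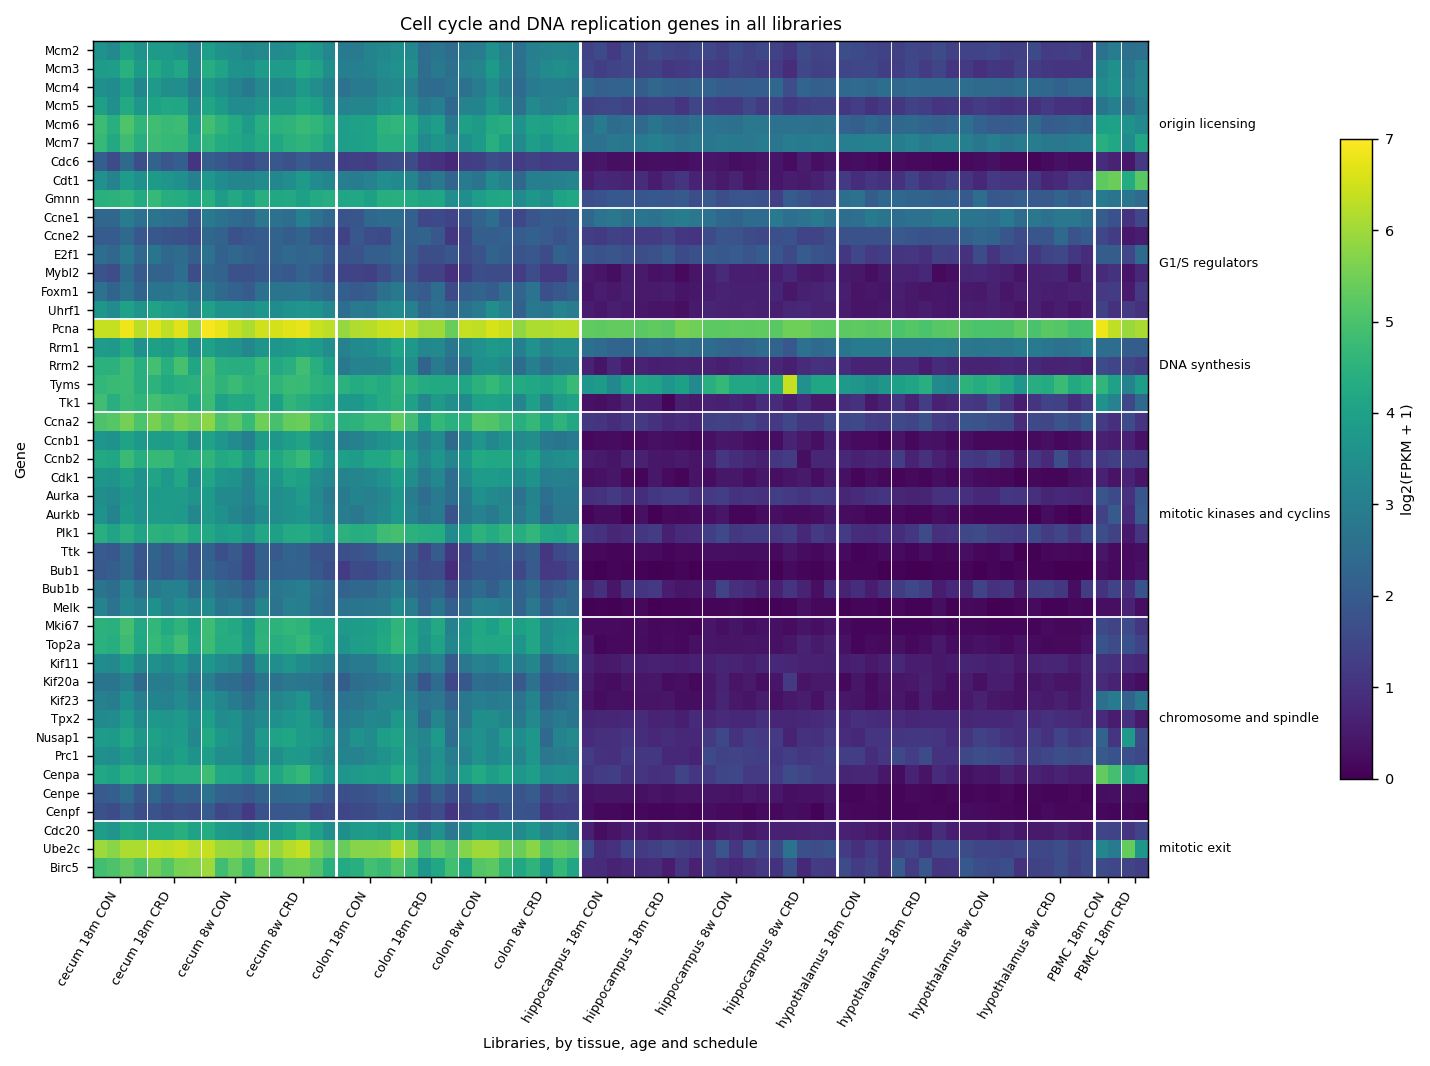
Log2(FPKM + 1) of the 45 genes (rows, by role) in each of the 78 libraries (columns, by tissue, age and light schedule), from dark purple at 0 to yellow at 7. Cecum and colon columns are green to yellow in most rows, the brain columns are dark purple for the mitotic genes, and Pcna and Tyms are green or brighter in all tissues.

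Mki67, the antigen of cycling cells, averaged 20.9 ± 5.21 FPKM (SD) over the cecum CON libraries, 15.9 ± 3.32 in colon, 1.81 in PBMC, 0.22 in hippocampus and 0.09 in hypothalamus. Ube2c, the ubiquitin-conjugating enzyme of mitotic exit, averaged 64.3, 55.2, 7.26, 1.63 and 1.51 FPKM in the same order. For these genes both gut tissues stood far above blood and brain.

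Other members of the list were not low in brain. Pcna averaged 90.8 FPKM in cecum, 80.0 in colon, 96.5 in PBMC, 37.9 in hippocampus and 34.8 in hypothalamus; besides replication it serves DNA repair. Ccne1 (cyclin E1) averaged 5.09, 3.61, 2.78, 4.71 and 5.35 FPKM in that order. Tyms, the thymidylate synthase, stood at 24.3, 20.5, 19.2, 15.8 and 15.5 FPKM. Pseudogenes of Tyms, Pcna, Ccnb1 and Ccnb2 are annotated, and how the authors' counting shared reads with such copies is not known, so these 4 levels are uncertain.

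The roles differed in how steeply they fell from gut to brain. Median CON means of the 11 mitotic kinases and cyclins were 10.2 FPKM in cecum and 8.44 in colon against 0.271 in hippocampus and 0.144 in hypothalamus. The 5 DNA synthesis genes stood at 22.7 and 15.0 FPKM against 4.21 and 5.99, and the 9 licensing genes at 12.8 and 8.77 against 1.72 and 1.73. In hippocampus and hypothalamus, chromosome and spindle genes stood at 0.351 and 0.328 FPKM, mitotic exit genes at 0.902 and 1.51 and G1/S regulators at 1.19 and 0.978. The mitotic kinases and cyclins thus had the lowest brain medians, while mitotic exit genes lay above G1/S regulators in hypothalamus. In PBMC the licensing median was 9.19 FPKM and the mitotic kinase median 1.16 FPKM, so blood stood near the colon for the former and nearer the brain for the latter.

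The gut and brain CON libraries, 18 and 18, were compared by limma on log2(FPKM + 1), with Benjamini-Hochberg adjustment over all genes tested and a call at adjusted p below 0.05. Of the 45 genes, 17 averaged under 0.5 FPKM over the brain libraries, Mki67, Top2a, Cdk1 and Ccnb1 among them. They entered the test only through the gut and had to differ, so their differences are values and not evidence of one. Of the other 28, 27 were called higher in gut, where 36.3% of all genes at that brain level were, and 1 was called lower, where 55.1% were. Every gut library lay above every brain library for 24 of the 28, against 17.8% of those genes, and the ranges of Ccne1, Ccne2, E2f1 and Tyms overlapped. The median difference of the 28 was 2.30 against -0.27 over all genes at that brain level.

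Ube2c differed by 4.58 ± 0.09 (SE) on the log2(FPKM + 1) scale and Ccna2 (cyclin A2) by 3.69, both from the 28 genes. Of the core genes among them, Mcm2 differed by 1.89 ± 0.07, Pcna by 1.19 ± 0.06 and E2f1 by 0.59 ± 0.07, and Ccne1 was the gene called lower, by -0.21 ± 0.08. Among the genes that entered through the gut, Mki67 differed by 4.04, Top2a, the DNA topoisomerase of chromosome decatenation, by 3.97, Cdk1 by 3.36 and Ccnb1 by 3.30. Within the 28, the role medians were 4.18 for 2 mitotic exit genes, 3.17 for 5 mitotic kinases and cyclins, 2.59 for 5 chromosome and spindle genes, 2.05 for 8 licensing genes, 1.19 for 5 DNA synthesis genes and 0.28 for 3 G1/S regulators. At the same brain level, 21 of 32 other replication genes were called higher in gut and 8 lower (median 0.56). Of 20 other mitosis genes 15 and 5 were (median 1.39). Among all genes at that level 36.3% were called higher and 55.1% lower.

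In the colon the light schedule went with lower fitted levels of these genes at both ages, but no single gene passed the adjusted threshold. At 18 months this rested in large part on CON replicate 5 and CRD replicate 5. Without both, as given below, fewer genes lay below 0 and their median came closer to that of all genes. At 18 months none of the 45 was called, where 0.362% of all genes were called higher and 0.178% lower. At an unadjusted p below 0.05, 17 were lower in CRD, where 13% of all genes were, and none was higher, where 4.77% were. The fitted change was below 0 for 44 of 45, where 58.4% of all genes were, and the median was -0.34 against -0.04 over all genes.

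At 8 weeks the colon again gave no call among the 45, where 0% of all genes were called higher and 0.0142% lower. At an unadjusted p below 0.05, 7 were lower, where 2.31% of all genes were, and none was higher, where 4.61% were. The fitted change was below 0 for 44 of 45, where 35.1% of all genes were, with a median of -0.26 against 0.06 over all genes. In both ages the single gene above 0 was Ccne2, the second cyclin E, with 0.10 and 0.03. The genes of one programme vary together between libraries, so these counts are not 45 independent observations.

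**Figure D2:**
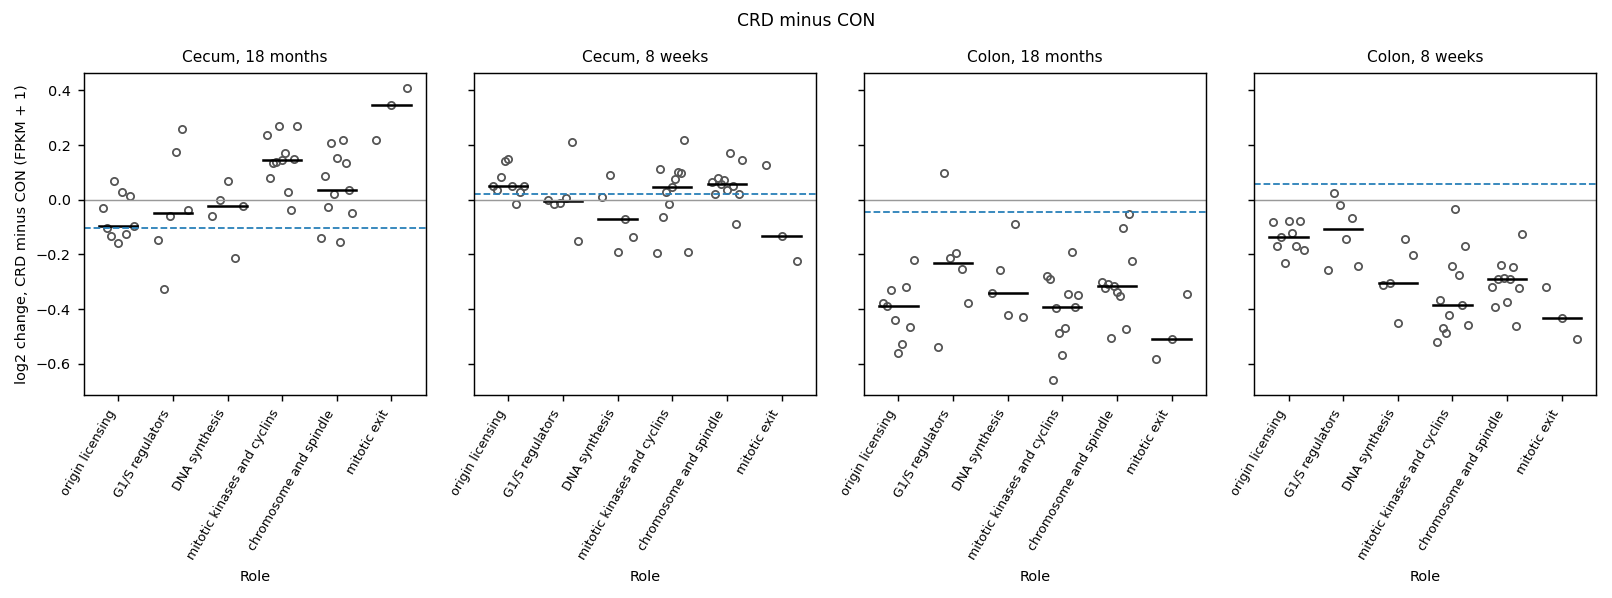
Log2 change, CRD minus CON, of each of the 45 genes (circles; none was called) by role in cecum and colon at both ages; the black bar is the role's median and the dashed line the median of all genes tested. In the colon panels 44 of 45 circles lie below 0 at each age, and in the cecum panels they lie on both sides.

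Mitotic genes gave the lowest p-values in colon. Ccnb2 (cyclin B2) stood at 14.56, 13.71, 17.33, 17.38 and 21.98 FPKM in the 18-month CON libraries and at 13.65, 8.41, 11.71 and 8.12 in CRD. The groups did not overlap, which held for 1 of the 45 genes at this age against 5.68% of all genes in that direction. Its change was -0.66 ± 0.17 (SE; limma adjusted p = 0.0856). At 8 weeks Ccnb2 stood at 12.36, 18.55, 17.09 and 17.11 FPKM in CON and at 12.65, 15.23, 9.11, 10.16 and 10.55 in CRD, a change of -0.47 ± 0.17 (limma adjusted p = 0.643), and the groups overlapped.

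Cenpa, the histone that marks centromeres, stood at 11.46, 12.75, 14.02, 13.33 and 18.25 FPKM in CON and at 12.71, 7.53, 11.33 and 7.94 in CRD at 18 months. Its change was -0.47 ± 0.16 (limma adjusted p = 0.132), and only CRD replicate 1 lay within the CON range. At 8 weeks the 4 CON libraries held 14.03, 18.36, 14.07 and 16.22 FPKM and the 5 CRD libraries 11.93, 13.83, 9.45, 10.45 and 10.02. These groups did not overlap, as was also so for Pcna, 2 of the 45 genes against 0.689% of all genes in that direction. The change was -0.46 ± 0.16 with a limma adjusted p of 0.607.

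Cdc20, the activator of the anaphase-promoting complex, stood at 10.14, 12.64, 13.63, 12.12 and 16.48 FPKM in 18-month CON and at 11.18, 6.56, 10.55 and 5.87 in CRD. The groups overlapped through CRD replicates 1 and 4, and the change was -0.58 ± 0.18 (limma adjusted p = 0.118).

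The proliferation antigen itself overlapped more. Mki67 stood at 12.81, 13.6, 14.29, 16.41 and 22.84 FPKM in 18-month CON colon and at 16.41, 11.53, 17.58 and 7.25 in CRD, a change of -0.30 ± 0.23 (limma adjusted p = 0.53). At 8 weeks it stood at 12.84, 16.99, 14.57 and 19.07 FPKM in CON and at 14.64, 16.59, 8.73, 11.18 and 12.1 in CRD, a change of -0.32 ± 0.23 (limma adjusted p = 0.788). The highest 18-month value came from CON replicate 5 and the lowest from CRD replicate 5.

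Top2a stood at 11.29, 13.85, 14.91, 17.96 and 23.83 FPKM in 18-month CON colon and at 17.23, 10.8, 15.44 and 8.36 in CRD. The 8-week libraries held 13.39, 17.67, 16.86 and 17.27 FPKM in CON and at 11.27, 16.39, 9.01, 12.04 and 12.84 in CRD. Below all CON libraries lay 2 of 4 CRD libraries at 18 months and 4 of 5 at 8 weeks, with changes of -0.32 ± 0.21 and -0.39 ± 0.21 (limma adjusted p = 0.45 and 0.74).

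Ccnb1 stood at 6.85, 7.47, 8.99, 11.11 and 12.75 FPKM in 18-month CON colon and at 9.87, 6.9, 9.56 and 4.35 in CRD. At 8 weeks it stood at 7.97, 11.53, 8.44 and 11.06 FPKM in CON and at 8.81, 10.03, 6.08, 5.53 and 6.59 in CRD. The groups overlapped at both ages, with changes of -0.29 ± 0.22 and -0.37 ± 0.22 (limma adjusted p = 0.529 and 0.752).

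Mcm2, a subunit of the replicative helicase, stood at 6.34, 6.43, 7.87, 8.66 and 9.74 FPKM in 18-month CON colon and at 8.54, 4.65, 5.61 and 4.65 in CRD. At 8 weeks it stood at 6.42, 6.69, 10.49 and 7.33 FPKM in CON and at 5.15, 7.12, 7.75, 8.03 and 7.97 in CRD. At 18 months 3 of 4 CRD libraries lay below all CON libraries, with a change of -0.38 ± 0.18 (limma adjusted p = 0.275), and at 8 weeks the groups overlapped, with -0.08 ± 0.18 (limma adjusted p = 0.939).

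Of the remaining core genes, Pcna averaged 75.8 ± 12.2 FPKM (SD) in 18-month CON colon and 60.5 ± 15.5 in CRD, and 85.2 ± 6.19 against 68.7 ± 7.32 at 8 weeks. Cdk1 averaged 10.0 ± 2.76 against 7.46 ± 2.37 FPKM at 18 months and 12.0 ± 1.87 against 8.36 ± 1.78 at 8 weeks. Ccne1 averaged 3.70 ± 0.998 against 2.24 ± 0.821 FPKM at 18 months and 3.50 ± 0.986 against 2.74 ± 0.554 at 8 weeks. E2f1, the transcription factor of S phase entry, differed by -0.21 ± 0.16 at 18 months and -0.02 ± 0.16 at 8 weeks. None of the 4 passed the adjusted test at either age.

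**Figure D3:**
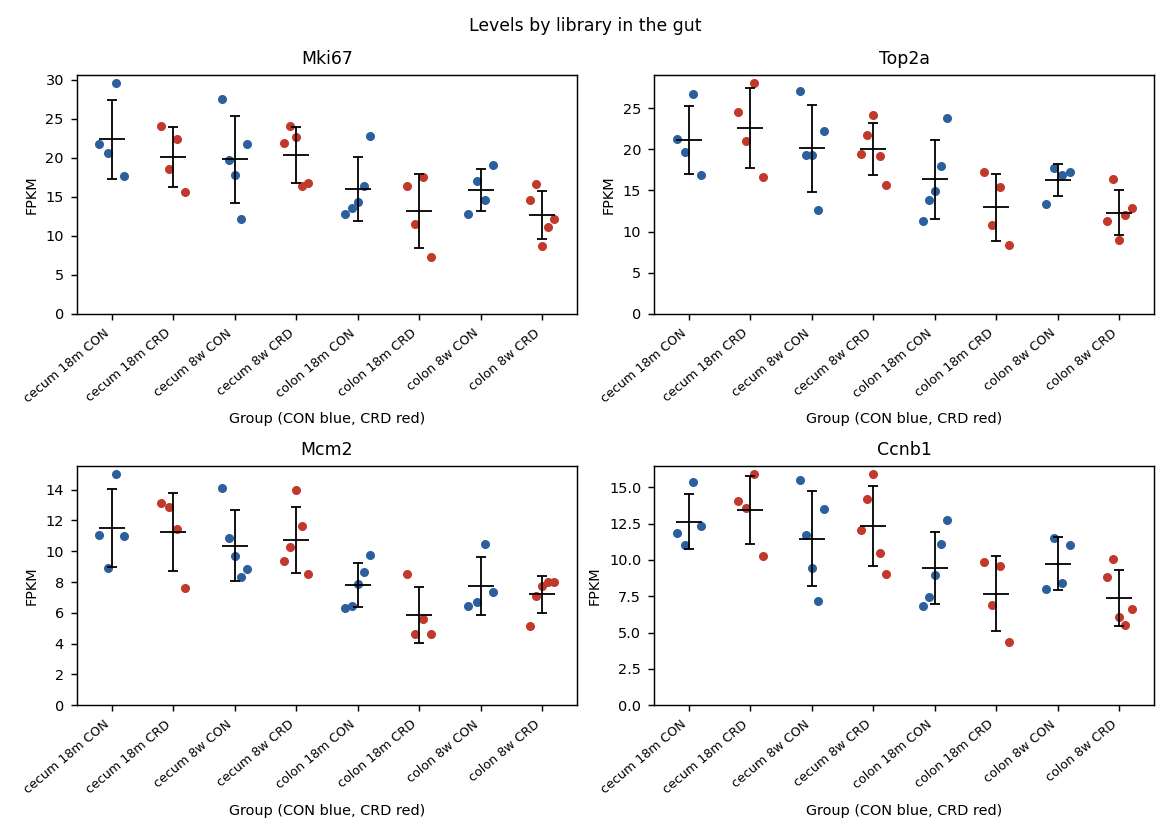
FPKM of Mki67, Top2a, Mcm2 and Ccnb1 in every cecum and colon library by group; points are libraries and the black marks group means with SD. CON and CRD overlap in each tissue and age, and Mki67 reaches 29.54 FPKM in cecum and 22.84 in colon.

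By role the colon medians at 18 months were -0.51 for mitotic exit, -0.39 for mitotic kinases and cyclins, -0.39 for licensing, -0.34 for DNA synthesis, -0.32 for chromosome and spindle genes and -0.23 for G1/S regulators. At 8 weeks they were -0.43, -0.39, -0.13, -0.31, -0.29 and -0.11 in the same order. Licensing held 6 of the 17 genes with an unadjusted p below 0.05 at 18 months. At 8 weeks none of the 7 was a licensing gene and 5 were mitotic kinases or cyclins: Ccna2, Ccnb2, Cdk1, Aurka and Melk.

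Genes of the same processes outside the list were followed beside it. Of 39 other replication genes 37 had a fitted change below 0 in colon at 18 months (median -0.25) and 31 at 8 weeks (median -0.11). Of 45 other mitosis genes 40 were below 0 at 18 months (median -0.18) and 43 at 8 weeks (median -0.20). Of all genes 58.4% were below 0 at 18 months and 35.1% at 8 weeks. The 18-month counts of both lists include CON replicate 5 and CRD replicate 5 and are not given without them. None of the genes of these lists was called. Among p53 targets Bax, a promoter of apoptosis, fell at 18 months by 0.47 ± 0.10 on the log2 scale (limma adjusted p = 0.0382), and the medians of the p53 targets and of the cell cycle inhibitors were 0.05 and 0.05. The circadian output gene Dbp fell by 2.73 ± 0.49 in the same comparison and the clock repressor Cry1 rose by 1.26 ± 0.22.

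Markers of cell types in the colon moved beside these genes, and their part in the result was not tested. At 18 months the 14 crypt base markers had a median change of -0.16 with 13 below 0, and their summed level ran from 245 to 307 FPKM in CON and from 194 to 266 in CRD. The 12 mature colonocyte markers had a median of 0.58, with sums of 17776 to 25575 FPKM in CON and 19597 to 29453 in CRD. The 9 T cell markers had a median of -0.57 with 9 below 0, with sums of 15.99 to 52.5 against 9.97 to 21.6 FPKM. Of all genes 58.4% lay below 0 at this age. At 8 weeks the T cell markers went the other way, with a median of 0.94 and 9 of 9 above 0, where 64.9% of all genes were. Their sum ran from 18.8 to 41.9 FPKM in CON and from 46.1 to 91.9 in CRD. The crypt base median at 8 weeks was 0.18, with sums of 192 to 250 against 235 to 295 FPKM.

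Single libraries carried part of the 18-month colon difference. CON replicate 5 was the highest of all colon libraries for 32 of the 45 genes, and CRD replicate 5 the lowest for 24. That CRD library also held a smooth muscle marker sum of 16385 FPKM, where the CON libraries held 2846 to 5470. Without CON replicate 5, 42 of 45 genes lay below 0, the median was -0.25 and 7 were lower at an unadjusted p below 0.05, where 11.8% of all genes were. With both left out, an alternative chosen after seeing the data, 33 of 45 lay below 0, the median was -0.13 against -0.07 over all genes, and 1 was lower at an unadjusted p below 0.05, where 13.3% of all genes were. Leaving out 1 library at a time moved the median between -0.48 and -0.23. Without CRD replicate 1, the highest CRD library, 4 genes were called lower, where 2.5% of all genes were, among them Ccnb2 (-0.79, limma adjusted p = 0.0297) and Cdc20 (-0.72, limma adjusted p = 0.0467). The unadjusted count fell from 17 to 7 without CON replicate 4 or CRD replicate 3, where 9.51% and 9.26% of all genes were lower, and to 6 without CRD replicate 5, where 14.4% were.

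The single genes moved with the same libraries. Mki67 changed by -0.17 without CON replicate 5, by -0.06 without CRD replicate 5 and by 0.07 without both. For Ccnb1 the 3 values were -0.18, -0.08 and 0.03, for Top2a -0.18, -0.15 and -0.01, for Cdk1 -0.27, -0.22 and -0.09, and for Pcna -0.28, -0.16 and -0.10. These core genes thus lost much of their fitted change, or turned its sign, without the pair. Ccnb2 stood at -0.57, -0.56 and -0.47, Cdc20 at -0.50, -0.44 and -0.36, Cenpa at -0.38, -0.39 and -0.29, Ccne1 at -0.47, -0.46 and -0.40, Mcm2 at -0.30, -0.30 and -0.22 and E2f1 at -0.12, -0.23 and -0.14. The last group stayed below 0 in each of these fits.

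At 8 weeks the median in colon moved between -0.37 and -0.18 over the same procedure, and the number of genes below 0 stayed at 39 or more. The unadjusted count of 7 became 14 without CRD replicate 2, 3 without CRD replicate 3, 2 without CON replicate 4 and 1 without CON replicate 3, where 1.86%, 2.39%, 1.17% and 1.7% of all genes were lower. Without CON replicate 4 the changes of Mcm2 and E2f1 turned to 0.06 and 0.08 and that of Ccne1 became -0.13, and without CRD replicate 3 that of Mki67 became -0.21.

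**Figure D4:**
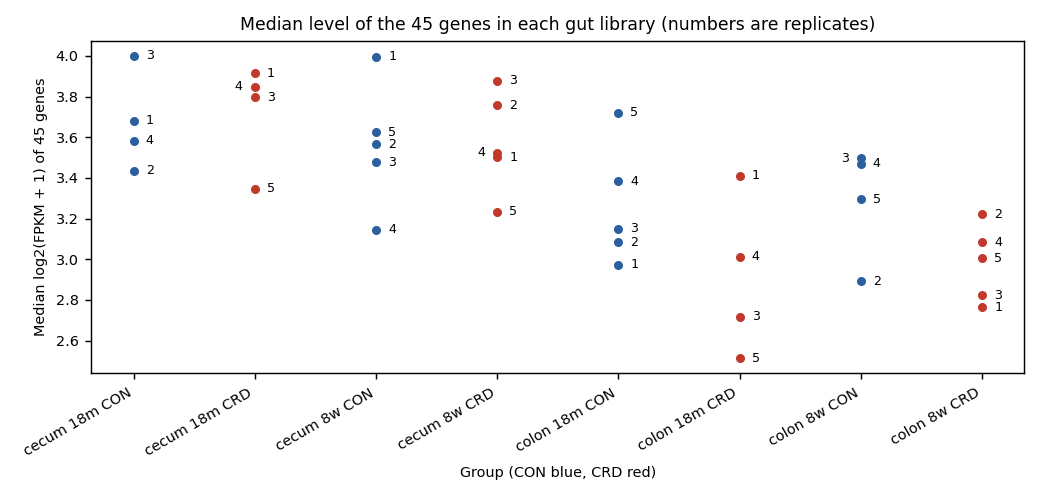
Median log2(FPKM + 1) over the 45 genes in each cecum and colon library, by group, with the replicate number beside each point. In the 18-month colon CON replicate 5 is the highest and CRD replicate 5 the lowest point.

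In the cecum the 45 genes gave no common direction under the light schedule. At 18 months none was called, where 0.00727% of all genes were called higher and 0.0218% lower. Among them 1 was lower at an unadjusted p below 0.05, where 11.7% of all genes were, and none was higher, where 4.58% were. The median change was 0.03 against -0.10 over all genes, with 26 genes above 0, where 31.2% of all genes were. At 8 weeks none was called, where 0.00727% of all genes were called higher and 0% lower, and the median was 0.04 against 0.02. None had an unadjusted p below 0.05 at that age, where 3.52% of all genes were higher and 1.64% lower.

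Mki67 in cecum stood at 21.7, 20.57, 29.54 and 17.71 FPKM in 18-month CON and at 24.05, 18.5, 22.37 and 15.56 in CRD. The 8-week libraries held 27.56, 19.7, 17.77, 12.2 and 21.7 FPKM in CON and at 21.91, 24.06, 22.61, 16.36 and 16.73 in CRD. The groups overlapped at both ages, with changes of -0.14 ± 0.21 and 0.07 ± 0.19.

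Top2a stood at 21.3, 19.66, 26.69 and 16.85 FPKM in 18-month CON cecum and at 24.57, 21.02, 28.09 and 16.63 in CRD. In the younger mice it stood at 27.05, 19.3, 19.27, 12.58 and 22.27 FPKM in CON and at 19.44, 21.68, 24.17, 19.13 and 15.7 in CRD. Its changes were 0.09 ± 0.20 and 0.02 ± 0.18, within the spread of the libraries.

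Ccnb1 stood at 11.83, 11.03, 15.35 and 12.32 FPKM in 18-month CON cecum and at 14.07, 13.58, 15.9 and 10.3 in CRD. In the younger mice it stood at 15.48, 11.74, 9.43, 7.16 and 13.51 FPKM in CON and at 12.05, 14.19, 15.89, 10.49 and 9.01 in CRD. CRD reached both above and below CON at 18 months and lay within its outer range but for 1 library at 8 weeks, with changes of 0.08 ± 0.20 and 0.11 ± 0.18.

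Mcm2 stood at 11.03, 8.93, 15.0 and 10.98 FPKM in 18-month CON cecum and at 13.12, 12.9, 11.43 and 7.61 in CRD. The 8-week libraries held 14.11, 10.83, 9.72, 8.32 and 8.85 FPKM in CON and at 9.39, 10.28, 13.97, 11.62 and 8.49 in CRD. Changes of -0.03 ± 0.19 and 0.05 ± 0.17 were again smaller than their errors.

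The other core genes in cecum changed at 18 months by -0.06 ± 0.18 (Pcna), -0.15 ± 0.19 (Ccne1), 0.14 ± 0.21 (Cdk1) and -0.06 ± 0.15 (E2f1), and at 8 weeks by 0.01 ± 0.16, 0.00 ± 0.17, 0.03 ± 0.19 and -0.01 ± 0.14. The smallest p-values at 18 months belonged to Ccne2 (-0.33 ± 0.15, limma adjusted p = 0.30), Tyms (-0.21 ± 0.11, limma adjusted p = 0.327) and Ube2c (0.35 ± 0.19, limma adjusted p = 0.364). Ube2c was the 1 gene whose CRD libraries all lay above CON, where 2.6% of all genes did. At 8 weeks they belonged to Foxm1, the transcription factor of the mitotic genes (0.21 ± 0.14), the checkpoint kinase Bub1b (0.22 ± 0.16) and Melk (-0.19 ± 0.17), with limma adjusted p of 0.897 for Foxm1.

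By role the cecum medians at 18 months were -0.10 for licensing, -0.05 for G1/S regulators, -0.02 for DNA synthesis, 0.04 for chromosome and spindle genes, 0.15 for mitotic kinases and cyclins and 0.35 for mitotic exit. Of the other replication genes 27 of 39 were below 0 (median -0.04), where 68.8% of all genes were. Of the other mitosis genes 27 of 45 were above 0 (median 0.05), where 31.2% were. Immune and muscle markers moved beside them and their part was not tested: B cell markers had a median of -0.94 at 18 months and 0.86 at 8 weeks, germinal centre B cell markers -0.72 and 0.47, and smooth muscle markers -0.33 and -0.56, none of them called. The circadian genes Nr1d2 and Ciart fell by 1.62 ± 0.17 and 2.16 ± 0.34 on the log2 scale at 18 months in the same fit, and Cry1 rose by 1.05 ± 0.15.

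Whether the CRD change differed between the ages was tested as an interaction. In cecum none of the 45 genes was called, where 0.0291% of all genes were called higher and 0.00727% lower, and the median difference, 18 months minus 8 weeks, was -0.02 against -0.11 over all genes. The smallest p-value was that of Birc5 (survivin), with 0.63 ± 0.32 (limma adjusted p = 0.339), followed by Ube2c (0.48 ± 0.25) and Melk (0.46 ± 0.26). The core genes there lay between -0.21 ± 0.28 for Mki67 and 0.11 ± 0.29 for Cdk1, with 0.06 ± 0.27 for Top2a, -0.03 ± 0.27 for Ccnb1, -0.07 ± 0.25 for Pcna, -0.08 ± 0.25 for Mcm2, -0.15 ± 0.26 for Ccne1 and -0.05 ± 0.20 for E2f1. In colon none was called, where 0.313% and 0.0569% of all genes were, and the median was -0.06 against -0.10; without CON replicate 5 at 18 months it was 0.03 against -0.09. Plk1, the polo kinase of mitosis, had the smallest p-value there, with -0.44 ± 0.29 (limma adjusted p = 0.626), followed by Mcm6 (-0.48 ± 0.34) and Mcm7 (-0.41 ± 0.29). None of the 45 had an unadjusted p below 0.05 in cecum, where 3.55% of all genes were higher and 12% lower, or in colon, where 1.98% and 8.56% were. For Mki67, Top2a, Ccnb1 and Mcm2 the colon differences were 0.02 ± 0.32, 0.07 ± 0.30, 0.08 ± 0.31 and -0.30 ± 0.25, and for Pcna, Ccne1, Cdk1 and E2f1 they were -0.03 ± 0.22, -0.28 ± 0.27, 0.09 ± 0.28 and -0.19 ± 0.22. These errors leave room for sizeable differences in either direction.

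Between 18-month and 8-week CON libraries, where age and sex cannot be told apart, the gut gave no call among the 45. In cecum 0.706% of all genes were called higher at 18 months and 0.8% lower, and the median of the 45 was 0.12 against 0.08 over all genes. In colon 0.22% and 0.76% of all genes were called, and the median was 0.00 against 0.07; without colon CON replicate 5 at 18 months it was -0.09 against 0.06. None had an unadjusted p below 0.05 in cecum, where 12.6% of all genes were higher and 4.38% lower, or in colon, where 12.5% and 3.95% were. Gmnn, the inhibitor of licensing, had the smallest p-value in both, with 0.29 ± 0.14 in cecum and 0.28 ± 0.21 in colon (limma adjusted p = 0.295 and 0.53). It was followed by Plk1 (0.27 ± 0.14) and Tk1 (0.28 ± 0.17) in cecum and by Cdk1 (-0.26 ± 0.20) and Plk1 (0.25 ± 0.20) in colon. In cecum Mki67 differed by 0.19 ± 0.20, E2f1 by 0.23 ± 0.14, Ccnb1 by 0.16 ± 0.19, Mcm2 by 0.14 ± 0.18, Top2a by 0.09 ± 0.19, Cdk1 by 0.07 ± 0.20 and Pcna and Ccne1 by -0.06 each. In colon the other core genes lay between -0.18 ± 0.15 for Pcna and 0.10 ± 0.16 for E2f1, with Ccne1 at 0.06, Mcm2 at 0.02, Top2a at -0.03 and Ccnb1 at -0.06, and the group means of Mki67 were nearly equal. Crypt base markers had medians of 0.31 in cecum, with 14 of 14 above 0, and 0.25 in colon, with 13 of 14 above 0. Of all genes 66.9% in cecum and 64.9% in colon lay above 0. The part of these markers was not tested.

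CON libraries of cecum and colon were then set against each other at each age. At 18 months 6 of the 45 genes were called higher in cecum, where 9.41% of all genes were, and none lower, where 10.7% were. The fitted difference was above 0 for 44 of 45, where 53.8% of all genes were, with a median of 0.33 against 0.03. At 8 weeks 2 were called higher, where 12.7% of all genes were, and none lower, where 12.4% were. At that age 42 lay above 0, where 54.5% of all genes were, with a median of 0.23 against 0.03. With the same-numbered cecum and colon libraries treated as pairs, 12 genes were called higher at 18 months, where 14.2% of all genes were, and 5 at 8 weeks, where 16.7% were, and none lower. Without colon CON replicate 5 at 18 months 9 were called higher at that age, where 8.34% of all genes were, with a median of 0.44. Without both replicate 5 libraries of the 18-month colon 14 were, where 9.28% of all genes were. The count at 18 months thus depended on the fit and the libraries, and it was smaller without some other libraries, as given below.

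**Figure D5:**
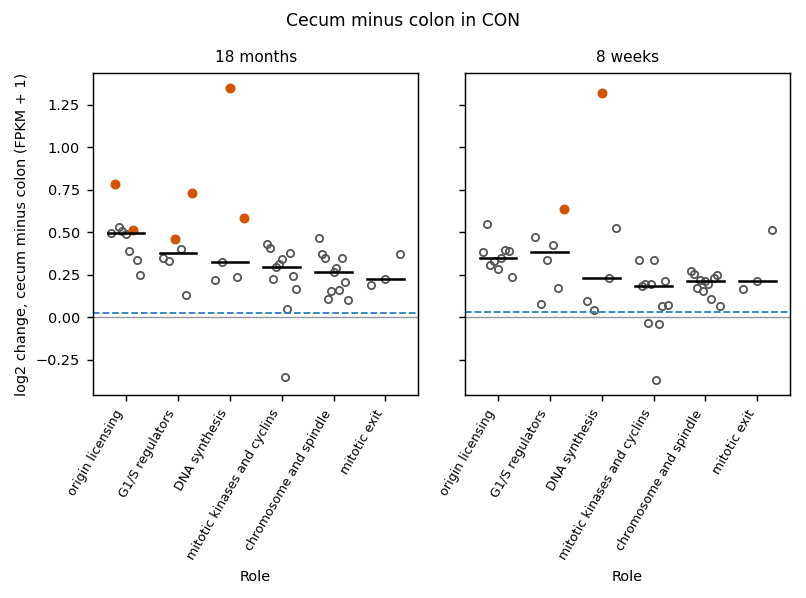
Log2 difference, cecum minus colon in CON, of each of the 45 genes by role at 18 months and 8 weeks; filled circles are genes called at adjusted p below 0.05, black bars role medians, the dashed line the median of all genes. Rrm2 is the highest circle at both ages, with 1.35 and 1.32.

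Rrm2, the regulated subunit of ribonucleotide reductase (chr12:24708241-24714146, plus strand, GRCm38), was the clearest of these. In cecum CON it stood at 21.28, 21.55, 26.78 and 19.84 FPKM at 18 months and at 30.1, 20.33, 19.67, 19.48 and 25.19 at 8 weeks. In colon CON it stood at 5.96, 7.56, 7.78, 8.02 and 12.38 FPKM at 18 months and at 5.4, 10.29, 10.41 and 8.81 at 8 weeks. No colon library reached a cecum library at either age, with differences of 1.35 ± 0.22 and 1.32 ± 0.22 (limma adjusted p = 3.9e-05 and 4.6e-05). Of all genes 10.7% lay wholly higher in cecum at 18 months and 7.59% at 8 weeks.

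Uhrf1, which keeps DNA methylation through replication (chr17:56303321-56323486, plus strand), was higher in cecum than in colon by 0.73 ± 0.20 at 18 months and 0.64 ± 0.20 at 8 weeks (limma adjusted p = 0.0084 and 0.0176). At 18 months alone Mcm3 (0.78 ± 0.23), E2f1 (0.46 ± 0.15), the licensing factor Cdc6 (0.52 ± 0.18) and thymidine kinase Tk1 (0.58 ± 0.21) were also called; whether the tissue difference changed with age was not tested. Mki67 differed by 0.47 ± 0.22 and Mcm2 by 0.50 ± 0.18 at 18 months (limma adjusted p = 0.135 and 0.052). Plk1 went the other way, with -0.35 ± 0.18 at 18 months and -0.37 ± 0.18 at 8 weeks, neither of them called. Without cecum CON replicate 3, the highest cecum library of that group, 2 genes were called at 18 months, Rrm2 and Uhrf1, and without cecum replicate 1 or colon replicate 1 or 2 the count was 3. At 8 weeks Uhrf1 lost its call without cecum CON replicate 1 (limma adjusted p = 0.0505) or without colon CON replicate 2 or 3, and without colon CON replicate 4 there were 4 calls. The share of all genes called in these fits with a library left out is not given here, so their counts show only how the calls move. Ccne1 differed by 0.35, Top2a by 0.37, Ccnb1 by 0.41, Cdk1 by 0.30 and Pcna by 0.22 at 18 months without a call. At 8 weeks, also without a call, Tk1 differed by 0.52 ± 0.21 (limma adjusted p = 0.0635), Ccne1 by 0.47 ± 0.19, Mcm2 by 0.38 ± 0.18, E2f1 by 0.33 ± 0.15, Mki67 by 0.27 ± 0.22, Top2a by 0.25 ± 0.21, Ccnb1 by 0.19 ± 0.21, Pcna by 0.10 ± 0.17 and Cdk1 by -0.03 ± 0.21.

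Role medians of the cecum minus colon difference at 18 months ran from 0.50 for licensing and 0.38 for G1/S regulators down to 0.26 for chromosome and spindle genes and 0.22 for mitotic exit, and at 8 weeks from 0.38 for G1/S regulators and 0.35 for licensing to 0.19 for mitotic kinases and cyclins. Among the 39 other replication genes 7 were called higher and 1 lower at 18 months, where 9.41% and 10.7% of all genes were. At 8 weeks 4 and 1 were called, where 12.7% and 12.4% of all genes were. Called higher in cecum at both ages were the clamp loader subunit Rfc2 (0.66 and 0.89) and the polymerase delta subunit Pold3 (0.46 and 0.50). The origin recognition subunit Orc3 (0.39 and 0.32) was as well. Of 45 other mitosis genes 2 were called higher at 18 months and 3 at 8 weeks, against 9.41% and 12.7% of all genes. Among these the cytokinesis regulator Racgap1 stood at 0.51 and 0.49. Cdkn2b, an inhibitor of G1 kinases, was called lower in cecum, by -1.16 and -0.87.

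Lymphoid markers moved with this difference and their part in it was not tested. All 10 B cell markers were called higher in cecum at both ages, with medians of 2.60 and 2.25, and at 18 months their sum ran from 59.4 to 312 FPKM in cecum CON and from 9.35 to 27.0 in colon CON. Of the 9 germinal centre B cell markers 5 and 4 were called higher, and of 9 T cell markers 6 and 5. Crypt base markers had a median of -0.27 at 18 months, with 1 of 14 called higher and 6 lower. Of all genes 9.41% were called higher at 18 months and 12.7% at 8 weeks, and 10.7% were called lower at 18 months.

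In each brain region 27 of the 45 genes passed the filter of a mean of 0.5 FPKM, and CRD called none of them at either age. The genes that passed were not the same in both, since Cenpa passed in hippocampus alone and Tk1 in hypothalamus alone. In hippocampus 0% of all genes were called in either direction at 18 months and 0% at 8 weeks, and in hypothalamus 0.0277% were called higher and 0% lower at 18 months and 0% in either direction at 8 weeks. The smallest p-values in hippocampus were those of Mcm7 at 18 months (0.14 ± 0.07, limma adjusted p = 0.812) and Ccne1 at 8 weeks (0.29 ± 0.10, limma adjusted p = 0.169). In hypothalamus they were those of Ube2c at 18 months (0.28 ± 0.10, limma adjusted p = 0.257) and Mcm4 at 8 weeks (-0.12 ± 0.06, limma adjusted p = 1.00).

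Between the ages in CON hypothalamus 2 of the 27 were called: Mcm3 was higher at 18 months, where 3.73% of all genes were, and Ube2c lower, where 6.21% were. Here too age and sex cannot be told apart. Mcm3 stood at 1.77, 1.79, 1.84 and 1.45 FPKM at 18 months and at 1.3, 0.93, 1.2, 1.07 and 1.56 at 8 weeks, a change of 0.30 ± 0.09 (limma adjusted p = 0.0474) with overlap at 1 library of each group. Ube2c stood at 1.35, 0.96, 1.33 and 0.97 FPKM at 18 months and at 2.11, 1.78, 1.74, 1.56 and 1.8 at 8 weeks (-0.38 ± 0.10, limma adjusted p = 0.0262). Its groups did not overlap, where 6.06% of all genes lay wholly lower at 18 months. Both are low levels, and both calls could be lost by leaving out 1 library. Mcm3 lost its call without any one of 14 libraries, the 4 CON libraries at 18 months and CON replicates 1 to 4 at 8 weeks among them (limma adjusted p up to 0.121). Ube2c lost its call without CON replicate 2 or 4 at 18 months or CON replicate 1, 2 or 3 at 8 weeks (limma adjusted p up to 0.0847), and without CON replicate 5 at 8 weeks 8 of the genes were called, 2 higher and 6 lower, where 7.71% and 19.9% of all genes were. In 18-month CRD hypothalamus Ube2c stood at 1.49, 1.82, 1.15, 1.84 and 1.8 FPKM, overlapping CON.

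In CON hypothalamus the replication factor Gins2 was higher at 18 months by 0.36 ± 0.10 (limma adjusted p = 0.0379) and cyclin D2 (Ccnd2) differed by -0.45 ± 0.09 (limma adjusted p = 0.00896). Sox11, a marker of young neurons, differed by -0.39 and the red cell gene Hba-a1 by 1.89, and their part was not tested. In CON hippocampus none of the 27 was called, where 0.384% of all genes were called higher and 0.0838% lower. Ccne2 had the smallest p-value, with 1.44, 1.26, 1.6 and 1.45 FPKM at 18 months and 2.08, 2.69, 2.44, 2.04 and 1.85 at 8 weeks, without overlap (-0.40 ± 0.10, limma adjusted p = 0.0778). Of all genes 11.4% also lay wholly lower at 18 months, and so did other genes of the list, Ccna2 among them. Exons of Ccne2 overlap a gene on the opposite strand, Ints8, and those of Ube2c overlap Tnnc2, and the strand setting of the counting is not given. Of the 45 genes 10 have such an overlap, Cdc20, Tk1, Ccna2 and Plk1 among them. Exons of 3, Top2a among them, overlap a gene on the same strand.

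In PBMC 37 of the 45 genes passed the filter and none was called between CRD and CON, where 0.935% of all genes were called higher and 0.195% lower. With 2 libraries a group, CRD lay wholly below CON for 20 of the 37 and wholly above for 1, where 49.2% and 6.99% of all genes did. Ube2c was the gene above, at 8.19 and 6.32 FPKM in CON and 39.37 and 11.97 in CRD (1.48 ± 0.55, limma adjusted p = 0.217). Tk1 stood at 10.9 and 7.6 FPKM in CON and at 1.89 and 4.26 in CRD (-1.38 ± 0.51, limma adjusted p = 0.225). The median of the 37 was -0.22 against -0.49 over all genes, but 0.15 once libraries were rescaled by median of ratios and -0.57 once they were brought to one total. With so few libraries the fit took each gene's variance from the trend over all genes, and without CRD replicate 2 it called 2 of the genes higher and 8 lower, where 4.68% and 40.1% of all genes were, with a CRD group of 1 library that is assumed to vary like the others. The CRD libraries also differed in blood cell markers, with the red cell gene Hba-a1 higher by 3.84 ± 0.68 and the neutrophil gene S100a8 by 3.23 ± 0.60, and the part of these in the result was not tested.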

How the data were processed

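RNA was extracted with Trizol and libraries were primed with oligo(dT) and random hexamers, per the labels' protocols. The submitters' processing notes name HISAT2, Bowtie2, RSEM and DESeq2 and the GRCm38 build; their versions are not given. FPKM values were deposited by the authors with 2 decimals for 20673 genes in 78 libraries. Counts were not analysed here and the depth is unknown; FPKM summed to 430706 to 590745 in the solid tissues and 502827 to 960370 in PBMC, and 16960 to 17753 and 15425 to 16151 genes lay above 0. There were 0 columns of other samples.

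Values were taken as log2(FPKM + 1), which understates the change of low genes. Genes averaging at least 0.5 FPKM over the libraries of a fit were tested with limma (version 3.58.1, trend on mean level, under R 4.3.3), with one fit per tissue (both ages), one for gut against brain and one for cecum against colon, adjusted by Benjamini-Hochberg over all genes tested. PBMC had 2 libraries a group. The code was tested on simulated data. Gene positions come from GENCODE M21 and promoters from RefSeq.

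The 45 genes and the pathway and marker lists were chosen with earlier results of these data known. Named genes are 8 core members (Mki67, Top2a, Pcna, Mcm2, Ccne1, Ccnb1, Cdk1, E2f1) in each gut comparison, plus those called or, with under 3 called, the 3 with the smallest p; in brain and PBMC those called or the one with the smallest p; and up to 3 called genes of a pathway list. Further colon genes were named after their values were seen. Same-numbered cecum and colon libraries deviated together in 17 of 17 pairs (r from 0.138 to 0.612), so the block on the pair is printed where it changed a count; CON and CRD numbers did not meet this in any solid tissue, nor did hippocampus and hypothalamus, which passed 0.1 in 14 of 19 pairs (r from -0.195 to 0.6). Alternatives were another pseudocount, scaling, filter, trend, block and each library left out.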

Additional observations from a re-analysis of the deposited data

Results flagged for a closer look

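Among 92 groups of libraries examined for 1 value far from the rest, 4 had one, where chance flags about 1 in 20. The median log2(FPKM + 1) of the 45 genes was 0.8718 in hippocampus CRD replicate 1 at 18 months, against 0.6229 to 0.669 in the other libraries of its group. It was 0.9855 in hypothalamus CRD replicate 1 at 8 weeks, against 0.848 to 0.8875. Ccne1 stood at 3.46 FPKM in colon CRD replicate 1 at 18 months, against 1.72 to 1.98 in the other CRD libraries. Tyms stood at 81.84 FPKM in hippocampus CRD replicate 2 at 8 weeks, against 10.59 to 18.76. Tyms was examined in hippocampus alone, where it is neither a core nor a called gene, so its flag cannot be set against that rate.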

How the results depend on the processing

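With each library left out in turn, the number of the 45 genes called in colon CRD at 18 months ran from 0 to 4 and its median change from -0.48 to -0.23, and at 8 weeks the median ran from -0.37 to -0.18. The count for age ran from 0 to 1 in hippocampus and 0 to 8 in hypothalamus, for PBMC from 0 to 10 (10 without CRD replicate 2) with a median of -0.38 to -0.18, and for cecum against colon from 2 to 9 at 18 months and 1 to 4 at 8 weeks; gut against brain stayed at 45 over all 45 genes, of which 17 passed only through the gut. The replicate block gave 12 and 5 calls for cecum against colon at 18 months and 8 weeks in place of 6 and 2. For age it gave 4 in hypothalamus in place of 2, and 1 in hippocampus in place of 0. The share of all genes in those brain block fits is not given here, so these counts describe the fit and not the genes. The ranges with each library left out likewise show only how the counts move. Outside cecum and colon the rule that every pair deviate together was not met, though 14 of 19 same-numbered hippocampus and hypothalamus pairs did. Leaving out both replicate 5 libraries of the 18-month colon, chosen after seeing the data, gave 14 calls for cecum against colon. A pseudocount of 0.1 moved the gut-brain median over all 45 genes, the 17 that passed only through the gut included, from 2.32 to 3.43. With it the age median in hippocampus moved from -0.11 to -0.23 and the PBMC median from -0.22 to -0.34. The hypothalamus age count became 1 under this pseudocount and also when testing without a filter. Scaling each library to one total moved the PBMC median to -0.57, the hippocampus age median to -0.19 and the hippocampus CRD median at 8 weeks from 0.01 to -0.081; median-of-ratios scaling moved the PBMC median to 0.15. The cause of these shifts was not tested. No result changed to a called value of the opposite sign. The colon changes stayed below 0 for 44 and 45 genes (18 months and 8 weeks) under median-of-ratios scaling and for 44 and 42 under scaling to one total. The share of all genes below 0 in these rescaled fits is not given here. Their 18-month counts include CON replicate 5 and CRD replicate 5, without which fewer genes lay below 0 in the main fit. Depth is unknown, so no counting error can be given for the low brain values.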
